A study of Oryza sativa with 9 samples.

Results

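Chromosome 12 of rice is described here through the 7187 gene models that the deposited tables place on it, of 105692 models in all. The members were taken by chromosome and ordered by start position, and the chromosome itself was chosen by measured levels: those of OE2 parted there from both other lines. RNA was sequenced from whole roots of 7-day-old rice plants (cultivar Dongjin) raised in soil at room temperature, with days of 10 h light and 14 h dark. OE2 is an overexpression line of the diacylglycerol kinase gene DGK1, dgk1 (dgk1-1) is a knockout line of the same gene, and WT is the wild type, with 3 libraries each. The sources used here do not give the promoter of the overexpression construct, the nature of the knockout allele or the number of plants behind a library. OE2 and dgk1 are each 1 line, so a difference between lines holds for these lines and for no other with the same transgene or allele. The series title names root architecture as the question, and the map of the chromosome asks where along it OE2 parts from the other lines.

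Diacylglycerol kinases add a phosphate to diacylglycerol and make phosphatidic acid, and plant cells use both as signals. Rice chromosome 12, like chromosome 11, carries many genes for NB-ARC proteins, the intracellular immune receptors that sense pathogen effectors and often stand side by side in clusters. A gene model is a stretch of the genome to which sequenced fragments are assigned, and models of several kinds can share the same bases.

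Levels are given in FPKM, fragments per kilobase of model scaled to the depth of the library, with SD and n = 3 per line unless all values are shown. The libraries held between 8908397 and 12459460 fragments in models, and 4.22% to 4.76% of them lay on chromosome 12. The 3 libraries of a line are described as biological repeats. In every pair of repeats the spread exceeded sampling noise (chi-square over its degrees of freedom, 5.01 to 18.7). Root genes were high in all 9 libraries, with the silicon exporter gene Lsi2 at 197 to 298 FPKM and the root-specific gene RCc3 at 832 to 2109 FPKM. The silicon importer gene Lsi1 was listed at 0 and model 16616, which shares its span, at 0.754 to 2.94 FPKM. The 20 green-tissue models summed to 276, 195 and 222 FPKM in OE2, 157, 158 and 119 FPKM in dgk1, and 180.1, 209 and 264 FPKM in WT, and their part in the results was not tested. The DGK1 gene OS04G0634700 was listed at 0 in all 9 libraries. Model 25546, which shares its span, stood at 0.521, 0.625 and 0.571 FPKM in OE2, at 7.24, 5.60 and 9.16 FPKM in dgk1, and at 0.896, 0.738 and 0.487 FPKM in WT. These values go against both labels, so OE2 and dgk1 mean below the libraries that carry those labels.

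Of the 7187 models on chromosome 12, 2177 carry an annotation identifier, 806 carry a running number in the files, and 4204 are noncoding models. Most of them, 4865 or 67.7%, were listed at 0 in all 9 libraries, among them 92.3% of the noncoding ones. The filter of at least 1 FPKM in at least 3 libraries left 1239 models, of which 765 were annotated, 335 numbered and 139 noncoding. A model that passed this filter through 1 line alone had to differ between lines, so the counts below describe the models that passed and not the whole chromosome. Positions are those of the deposited tables, and the sources used here do not name the genome build behind them.

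A model is called parted where it passed an adjusted p of 0.05 in OE2 against WT and in OE2 against dgk1 with the same sign in both (limma on log2(FPKM + 1), Benjamini-Hochberg over 22383 models). On chromosome 12, 135 models parted, 100 of them higher and 35 lower in OE2. They were 10.9% of the tested models there. Over the whole genome 4.56% parted, 2.37% higher and 2.18% lower. In whole roots, a change in the share of a cell type and a change in RNA per cell cannot be told apart. OE2 against WT alone gave 171 calls (119 higher, 52 lower), with 6.96% called over the genome (3.71% higher, 3.24% lower). OE2 against dgk1 gave 158 (114 higher, 44 lower), with 6.36% called over the genome (3.20% higher, 3.15% lower). Both comparisons share the OE2 libraries, and both chose the chromosome, so these counts describe the choice and carry no test. Chromosome 11 had the higher share of parted models, at 14.6%, chromosome 6 had 9.13%, and the other 9 chromosomes lay between 1.63% and 4.24%.

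The parted models lay mostly between 5.44 and 15.1 Mb. Between 5436086 and 15113552, a span of 9.68 Mb, 118 of 295 tested models parted (40.0%), 88 of them higher and 30 lower in OE2. To the left of the span 6 of 378 tested models parted (1.59%), and to the right 11 of 566 (1.94%). The 3.40 Mb before the first end held 206 tested models in a row of which none parted, between OS12G0141900 and OS12G0204100. After the last end, 118 tested models in a row between 15986571 and 20045549 held no parted one, and a further 138 stood between 23946753 and 26238455.

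**Figure D1:**
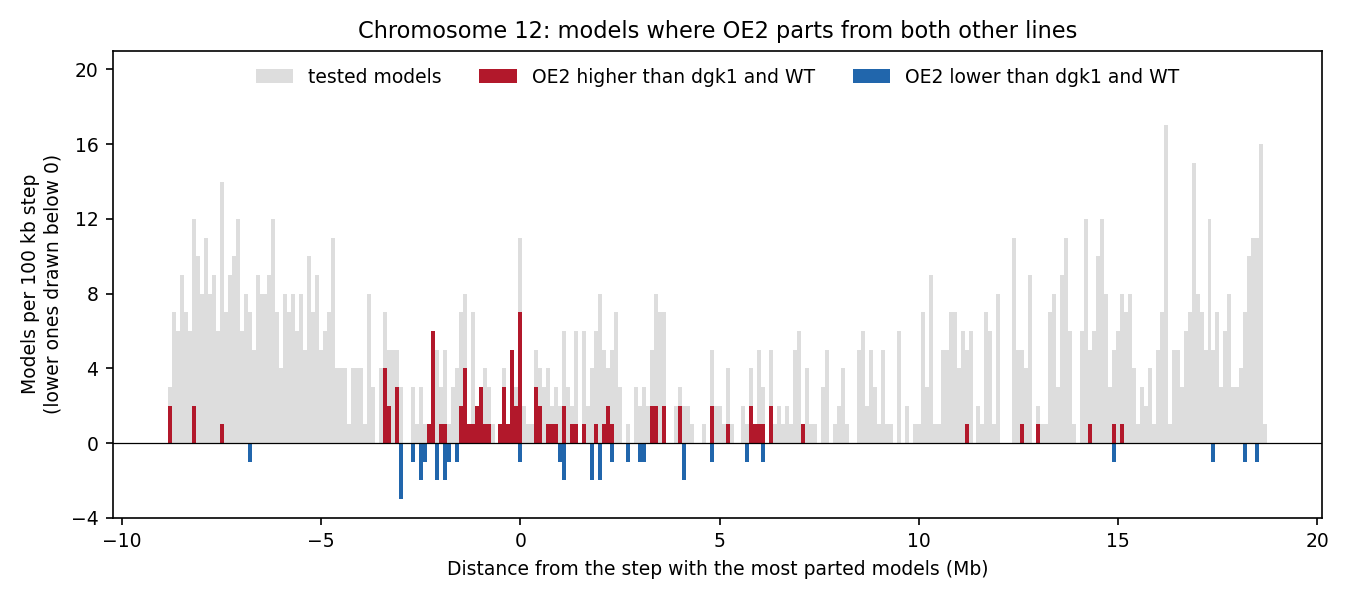
Tested models (grey) and parted models in each 100 kb step of chromosome 12, placed by distance in Mb from the step with most parted models. Bars above 0 count models higher in OE2 than in dgk1 and WT (red), and bars below 0 count lower ones (blue). The step at distance 0 holds 8 parted models of 11 tested, and 32 of the 34 differing steps lie between 5436086 and 15113552.

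In steps of 100 kb, 248 steps held a tested model and 74 held a parted one. A step was counted as differing where at least 2 models parted and these were at least 20% of its tested models, which held for 34 steps, 32 of them in the span. The step from 8.8 to 8.9 Mb had the most parted models, with 7 higher and 1 lower among 11 tested. Between 8 and 9 Mb, 21 of 31 tested models parted and 20 of these were higher in OE2. The neighbouring bins of 1 Mb had 40.0% (7 to 8 Mb) and 41.9% (9 to 10 Mb), while the bin from 6 to 7 Mb reached 60.7%, with 9 higher and 8 lower. The differing steps outside the span were the first one of the chromosome, with models 10263 and 10267, and the step from 23.7 to 23.8 Mb.

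Differing steps joined across at most 1 step gave 10 stretches, which together cover 2.66 Mb and hold 83 of the 135 parted models. Their ends are the start of the first and the end of the last parted model, and tested models are counted over the steps. The first ran from 5436086 to 5866924 with 12 of 25 tested models parted, and the second from 6610762 to 6990057 with 12 of 19. A short one from 7385247 to 7457818 had 6 of 15, and in the fourth, 7709120 to 7893898, all 5 tested models parted and all were higher in OE2. The fifth, 8485823 to 8875025, was the one with most parted models, 19 of 24, of which 18 were higher. The sixth ran from 9209610 to 9367525 (5 of 9) and the seventh from 10624037 to 11178724 (10 of 32). Smaller ones followed at 12143159 to 12442244 (6 of 27), 12868201 to 12912287 (4 of 5) and 14963353 to 15113552 (4 of 8).

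The outline depended on low levels and on single libraries. A filter of 5 FPKM in place of 1 left 53 parted models and 1 stretch, 8601244 to 8853021. Without each dgk1 library in turn, without OE2 replicate 1 or without OE2 replicate 3, the rule gave 6 stretches and the last end moved to 12442244. The last end moved there too without WT replicate 1, without WT replicate 3 and with the replicate number as a block. The first end moved to 5731502 without OE2 replicate 1 or with 0.1 in place of 1 added to FPKM. Steps of 50 kb moved it to 6610762. The shares given for the span rest on its ends in the main fit. Parted models numbered 113 to 139 over the fits that left out 1 library.

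Neighbouring parted models often had the same direction. Of the 134 pairs of neighbouring parted models, 105 had the same direction, and of the 62 pairs with no tested model between them, 54 did. As 100 of the 135 parted models were higher in OE2, many pairs would share a direction in any order. Whether neighbours did so more often was not tested. The longest run was 11 tested models in a row, from OS12G0250700 to OS12G0256000 (8485823 to 8797234), each of them higher in OE2. A run of 10 between 6395609 and 6662670 began with 3 models lower in OE2 and went on with 7 higher. Some neighbours share bases: 20 parted models form 11 overlapping pairs, and 67 overlap some other listed model. Fragments of overlapping models cannot be told apart where the counting of strands is unknown, and such pairs are not separate observations.

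**Figure D2:**
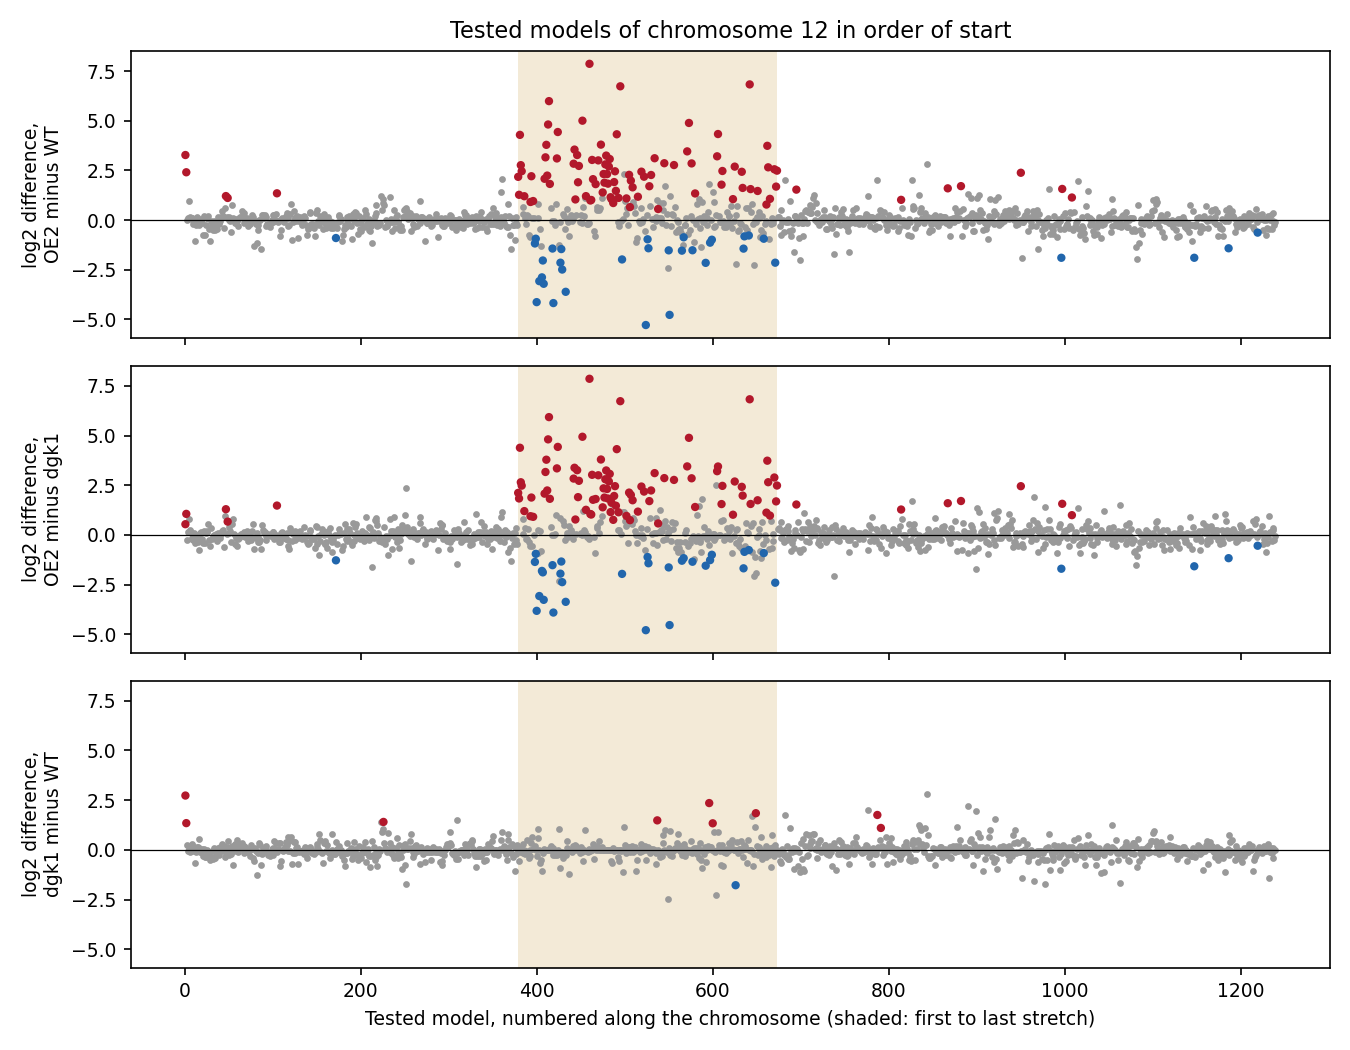
Differences on the log2(FPKM + 1) scale for the 1239 tested models of chromosome 12, in order of start, for OE2 minus WT, OE2 minus dgk1 and dgk1 minus WT (top to bottom). Coloured points in the upper panels are the 100 higher and 35 lower parted models, coloured points in the lowest panel are the 10 models called in dgk1 against WT, and the shaded part is the span of 295 models from the first to the last stretch.

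Many parted models were detected in OE2 alone or in every line but OE2. All 135 had OE2 libraries that did not overlap the other 6, as did 12.9% of all tested models, a property that the choice of the models all but fixes. Of the 100 higher ones, 48 were listed at 0 in all 6 libraries of dgk1 and WT, and of the 35 lower ones, 17 were listed at 0 in all 3 OE2 libraries. The median level of the higher ones was 5.95 FPKM in OE2 and 0 FPKM in both dgk1 and WT. The lower ones had a median of 0.0141 FPKM in OE2, 2.91 FPKM in dgk1 and 3.44 FPKM in WT. Parted models took 0.279%, 0.271% and 0.273% of all fragments in OE2, 0.0995%, 0.0992% and 0.0976% in dgk1, and 0.0908%, 0.0929% and 0.0997% in WT. No OE2 library carried the pattern alone: of the 100 higher models, 30, 28 and 42 had their highest value in OE2 replicates 1, 2 and 3.

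**Figure D3:**
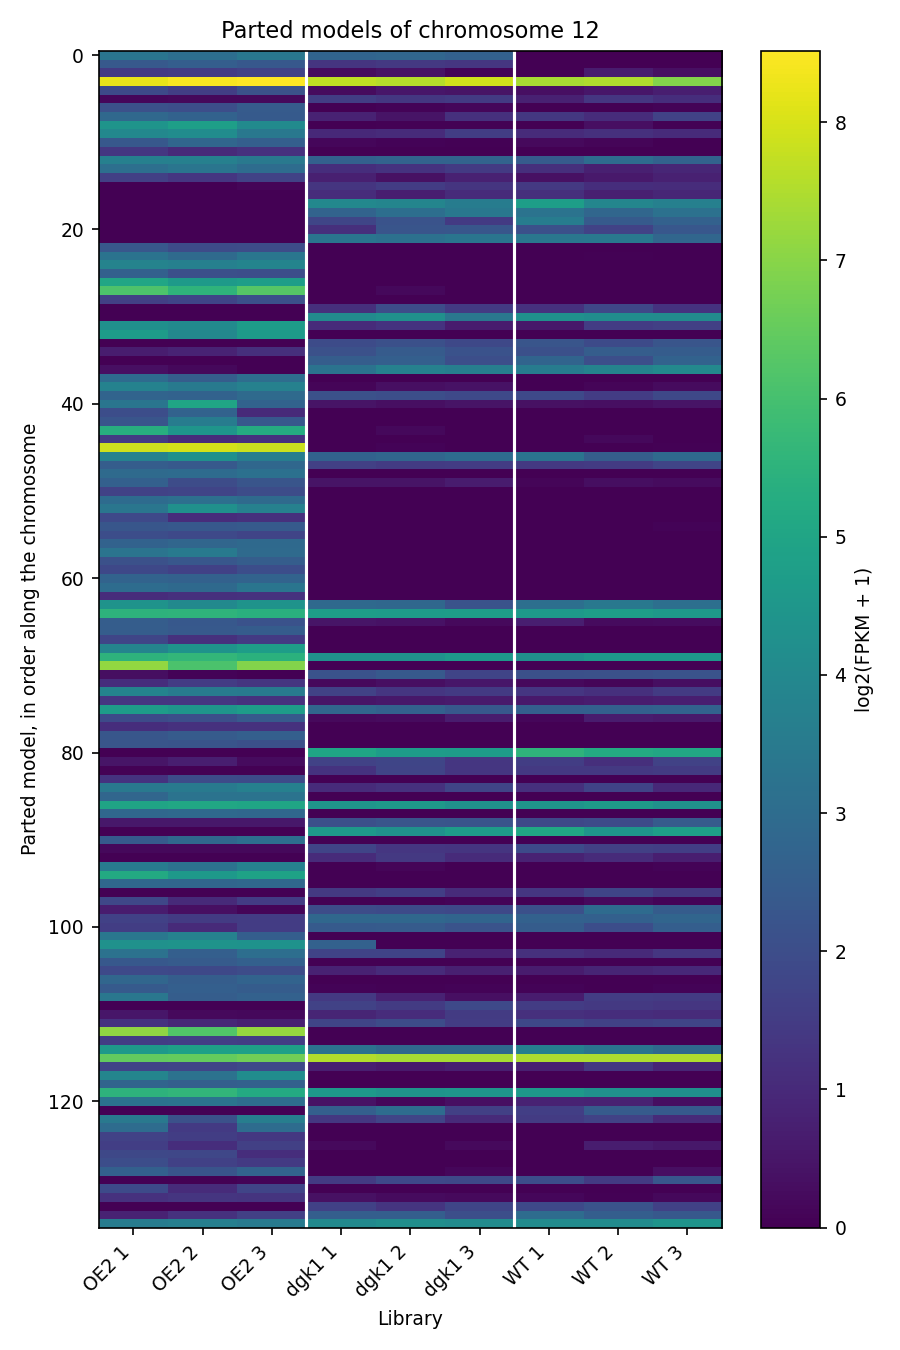
Levels of the 135 parted models as log2(FPKM + 1), in order along the chromosome from top to bottom, in the 3 OE2, 3 dgk1 and 3 WT libraries. The dgk1 and WT columns look alike down the chromosome, and 48 rows are at 0 in all 6 of them.

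Counted over all listed models with no test, 48 on chromosome 12 were at 1 FPKM or more in all OE2 libraries and at 0 in the other 6, where 0.174% of all listed models had this pattern and 0.668% of those on chromosome 12. The reverse, 0 in OE2 and at least 1 FPKM in each of the other 6, held for 15 models (0.153% of all listed, 0.209% on the chromosome). No model of chromosome 12 was present in dgk1 alone or in WT alone by this measure, as were 0.0227% and 0.00284% of all listed models. The noncoding model EPlOSAG00000012366 was at 0 in dgk1 alone, at 5.30, 1.87 and 1.81 FPKM in OE2 and at 1.98, 1.63 and 2.47 FPKM in WT, a pattern of 0.00189% of all listed models. Models 10263 and 11566 were at 0 in WT alone (0.00852% of all listed).

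By kind, 57 of 765 annotated models parted (7.45%, against 3.54% over the genome), as did 70 of 335 numbered ones (20.9%, against 8.04%) and 8 of 139 noncoding ones (5.76%, against 2.36%). A description that names a function exists for 28 of the 135. Within the span, models with a mean level under 5 FPKM parted most often, 87 of 197 or 44.2%. Those at 5 to 20 FPKM did so in 21 of 58 cases (36.2%), and those at 20 FPKM or more in 10 of 40 (25.0%). Outside the span the shares at the same levels were 2.96%, 0.452% and 0.463%. The mean is taken over all 9 libraries, so a model present in OE2 alone counts at a lower level than it has in OE2. Such a model passed the filter only by differing between lines. The fall of the share with level is therefore partly fixed by the choice of models. The span also had fewer models: 209.97 listed and 30.5 tested per Mb, against 289 and 52.9 per Mb outside it, and 35.3% of its tested models were numbered ones, against 24.5%.

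**Figure D4:**
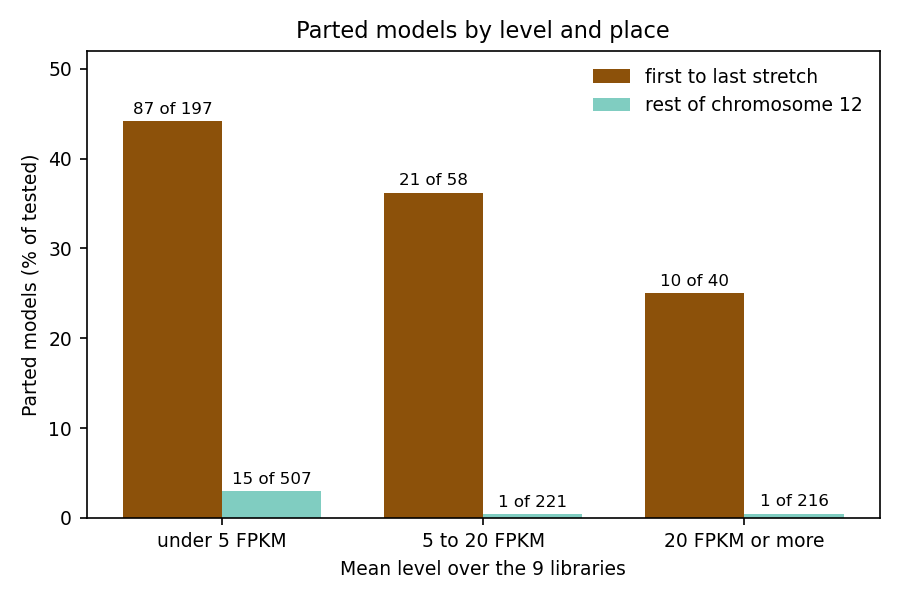
Share of tested models that parted (%), by mean level over the 9 libraries, in the span from the first to the last stretch (brown) and in the rest of chromosome 12 (green). The share falls from 44.2% to 25.0% with level in the span and is 2.96% or less outside it. Part of this fall is fixed, because models present in OE2 alone have low means and passed the filter only by differing.

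The lists were made from the models' descriptions. Of 47 immune receptor models on the chromosome 19 were tested, 3 parted higher and 1 lower in OE2, and none was called in dgk1 against WT (3 at an unadjusted p under 0.05, limma). Each parted member lies in the span, where 40.0% of all tested models parted, beside 10.9% over the chromosome. Whether immune receptors parted more or less often than other models at the same places was not tested. The median difference over the 19 was 0.05 for OE2 minus WT and -0.02 for dgk1 minus WT on the log2(FPKM + 1) scale, beside medians of 0.01 and -0.01 over all 22383 tested models. NB-ARC genes form families of like copies, so fragments may be shared among them and these levels are uncertain.

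The first of them stands in the first stretch. OS12G0204600, an NB-ARC gene at 5469046 to 5471369, was at 20.002, 26.9 and 15.9 FPKM in OE2, at 0, 0.0390 and 0.0347 FPKM in dgk1 and at 0, 0.285 and 0.0309 FPKM in WT. It was present at a moderate level in OE2 and all but absent from the other 6 libraries. Model 11039, also with an NB-ARC domain (5740543 to 5752161), was at 7.67, 8.90 and 7.12 FPKM in OE2, 1.15, 1.37 and 1.73 FPKM in dgk1, and 1.23, 0.671 and 0.900 FPKM in WT. The difference was 2.21 ± 0.16 (SE) for OE2 minus WT and 1.88 ± 0.16 for OE2 minus dgk1 on the log2(FPKM + 1) scale. Model 11375 (9988649 to 9996500) was at 10.00, 10.4 and 12.1 FPKM in OE2, against 1.05, 1.30 and 2.32 FPKM in dgk1 and 1.27, 2.30 and 0.967 FPKM in WT. OE2 lay above the other 6 in both.

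The seventh stretch begins with the NB-ARC gene that was lower in OE2. OS12G0281600 (10624037 to 10635373) stood at 0.471, 0.470 and 0.456 FPKM in OE2, 3.26, 3.70 and 3.68 FPKM in dgk1, and 2.58, 2.85 and 4.41 FPKM in WT. OE2 lay below the other 6 libraries, with an SD of 0.00831 FPKM among its own. NB-ARC genes in the same span that did not part include OS12G0270300 (9782561 to 9786758), which averaged 9.59 ± 1.75 FPKM in OE2, 10.6 ± 1.97 FPKM in dgk1 and 9.34 ± 2.70 FPKM in WT. OS12G0237900, another of them, was at 4.14, 2.74 and 5.71 FPKM in OE2, 1.20, 1.46 and 0.971 FPKM in dgk1, and 1.81, 1.81 and 3.12 FPKM in WT, where OE2 and WT overlap. It was called in OE2 against dgk1 and not against WT.

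**Figure D5:**
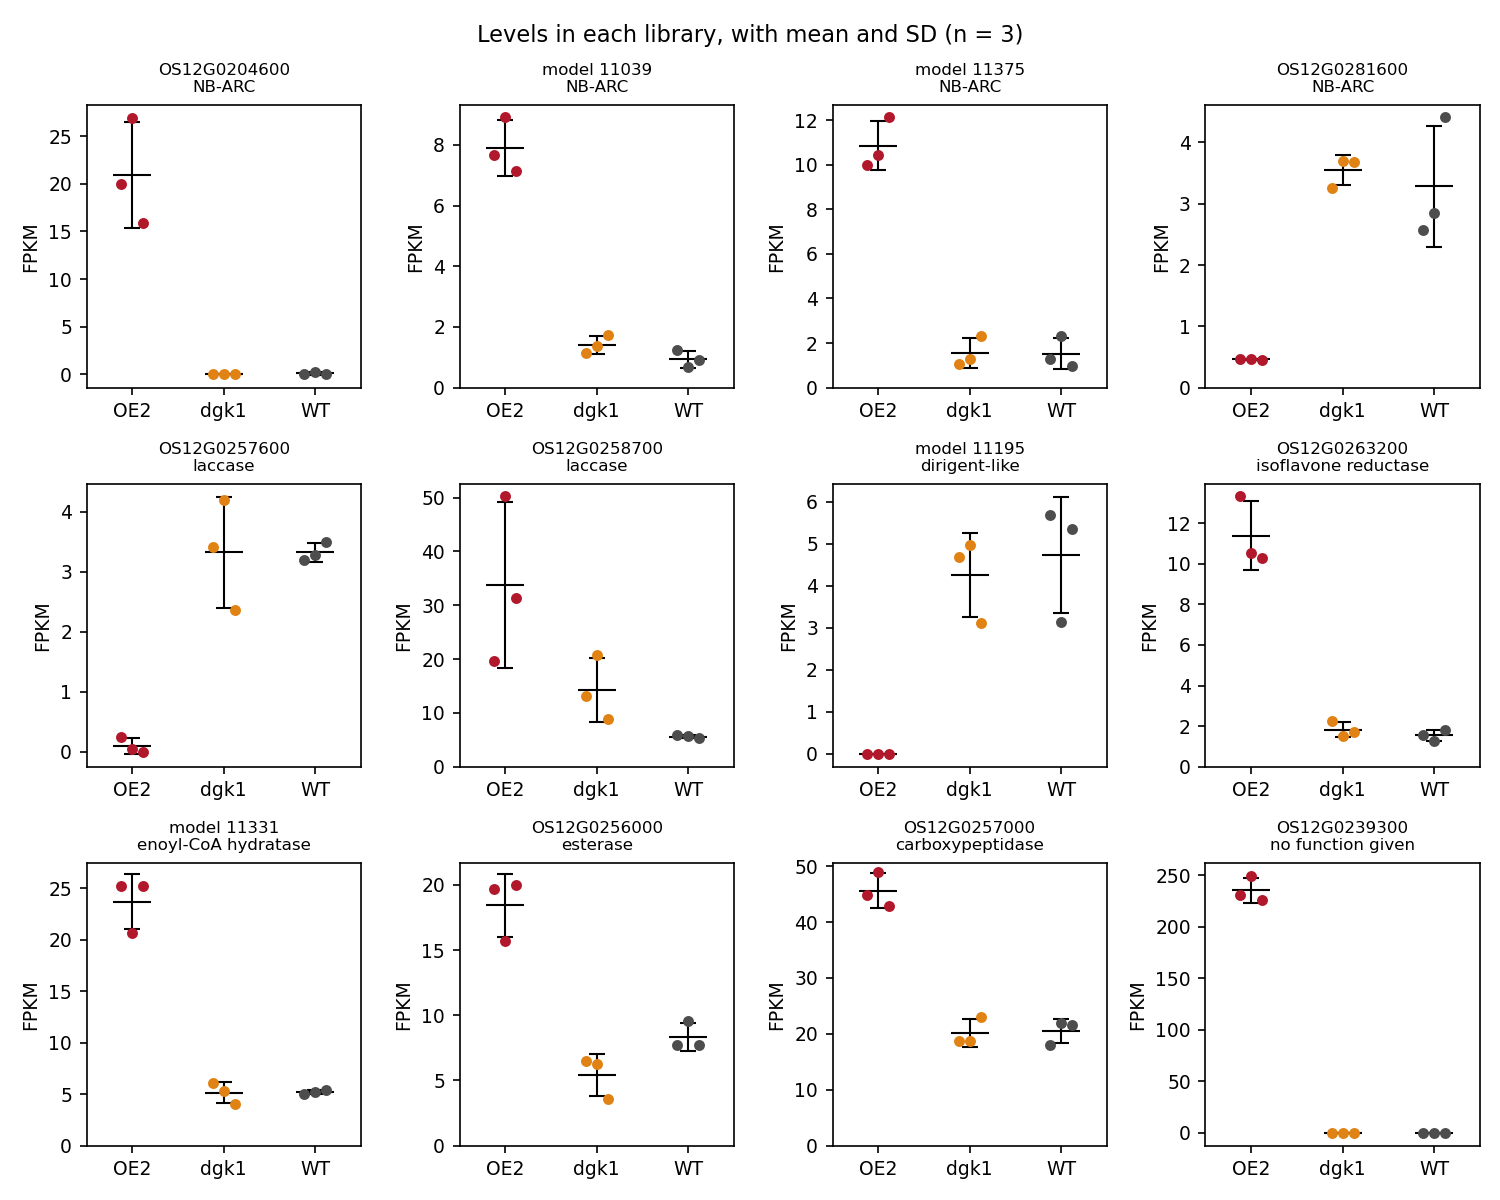
Levels in FPKM of 12 models of chromosome 12 in each library of OE2, dgk1 and WT (left to right in each panel), with the mean as a line and SD bars (n = 3 per line). In the 10 parted models with a named function the OE2 points lie apart from the other 6, above them in 7 and below them in 3, while those of laccase OS12G0258700 overlap with dgk1. OS12G0239300, with no function given, is near 0 in dgk1 and WT.

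Lignin and phenylpropanoid models, which serve the making of the phenolic polymer that stiffens root cell walls, had 7 tested members. Of these 2 parted, and both were lower in OE2. Both lie in the span, where 40.0% of all tested models parted. Laccases oxidize lignin precursors, and OS12G0257600, which closes the fifth stretch (8869547 to 8875025), was at 0.250, 0.0529 and 0 FPKM in OE2, 3.42, 4.20 and 2.36 FPKM in dgk1, and 3.19, 3.28 and 3.50 FPKM in WT. Dirigent proteins guide the coupling of phenolic radicals, and model 11195, with a dirigent-like domain (7011175 to 7012887), was at 0 in all OE2 libraries, at 4.68, 4.97 and 3.10 FPKM in dgk1 and at 5.69, 3.15 and 5.36 FPKM in WT. A neighbouring laccase did otherwise. OS12G0258700 (8960777 to 8964016) was at 19.7, 50.3 and 31.4 FPKM in OE2, 13.2, 20.8 and 8.87 FPKM in dgk1, and 5.80, 5.63 and 5.26 FPKM in WT. It was called higher in OE2 against WT (2.31 ± 0.36 on the log2(FPKM + 1) scale). Its OE2 and dgk1 libraries overlap, it was not called against dgk1, and so it did not part. Another laccase nearby, OS12G0259800, averaged 31.4 ± 14.3 FPKM in OE2, 18.7 ± 7.48 FPKM in dgk1 and 15.9 ± 7.66 FPKM in WT, with all groups overlapping. None of the 7 was called in dgk1 against WT, and 2 had an unadjusted p under 0.05 (limma).

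Transposon-derived models, which code for proteins that move or once moved DNA elements, had 8 tested members, 5 of them in the span. Of the 8, 4 parted higher and 1 lower in OE2. Of all tested models 40.0% parted in the span and 10.9% over the chromosome. Each of the 4 higher ones reached 1 FPKM in OE2 alone, so it passed the filter only by differing between lines. Whether this class parted more often than other models at the same places was not tested. Model 11290, with a plant transposase domain (8670057 to 8679483), was at 3.35, 3.97 and 4.71 FPKM in OE2 and at 0 in the other 6 libraries. Model 11623, with a tnp2 transposase domain, opens the ninth stretch (12868201 to 12876597) at 4.36, 4.93 and 4.58 FPKM in OE2, 0.0503, 0.0292 and 0.0651 FPKM in dgk1, and 0.0556, 0 and 0.0695 FPKM in WT. Both were at a few FPKM in OE2 and at or near 0 elsewhere. Model 11735 lies past the last stretch (15985395 to 15986571) and was at 2.17, 1.93 and 1.61 FPKM in OE2 and at 0 in dgk1 and WT. OS12G0262100, with a hAT dimerisation domain, opens the sixth stretch at 1.16, 1.86 and 1.496 FPKM in OE2, 0.153, 0.267 and 0.435 FPKM in dgk1, and 0.169, 0.0929 and 0.247 FPKM in WT. Its call was lost in 8 alternatives. The member lower in OE2 was model 11370, with a retrotransposon gag domain (9932544 to 9934959), at 0.0424, 0 and 0 FPKM in OE2, 1.35, 2.32 and 1.57 FPKM in dgk1, and 1.66, 1.68 and 1.78 FPKM in WT.

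Among enzymes with a named function, OE2 was higher in several that the other lines also express. OS12G0257000, a serine carboxypeptidase 1 that removes residues from protein ends (8829575 to 8834559, minus strand), was at 44.8, 49.0 and 42.9 FPKM in OE2, 18.7, 18.7 and 23.0 FPKM in dgk1, and 18.02, 22.0 and 21.5 FPKM in WT. That is a difference of 1.12 ± 0.12 for OE2 minus WT and 1.14 ± 0.12 for OE2 minus dgk1 on the log2(FPKM + 1) scale. Model 11331 holds a domain for enoyl-CoA hydratase/isomerase, of the kind found in fatty acid breakdown (9350656 to 9365572), and was at 25.2, 20.7 and 25.2 FPKM in OE2, 6.06, 5.31 and 4.05 FPKM in dgk1, and 5.04, 5.17 and 5.43 FPKM in WT. Its difference was 1.99 ± 0.15 for OE2 minus WT and 2.02 ± 0.15 for OE2 minus dgk1.

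In the same sixth stretch, OS12G0263200, described as an isoflavone reductase (9278224 to 9283540), was at 13.3, 10.5 and 10.3 FPKM in OE2, 2.24, 1.53 and 1.70 FPKM in dgk1, and 1.55, 1.28 and 1.82 FPKM in WT. OS12G0256000, a putative esterase that ends the run of 11 (8792353 to 8797234), was at 19.7, 15.7 and 19.95 FPKM in OE2, 6.46, 6.23 and 3.57 FPKM in dgk1, and 7.71, 9.58 and 7.70 FPKM in WT. OE2 lay above the other 6 libraries in either gene, though the call of OS12G0256000 was lost without WT replicate 1, WT replicate 3, OE2 replicate 1 or OE2 replicate 3. The staphylococcal-like nuclease CAN4 gene OS12G0255200 was low, at 1.12, 1.25 and 1.30 FPKM in OE2 and 0 in the other 6.

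Model 11226, with a C2 domain of the kind found in EEIG1 and EHBP1 (7441049 to 7457818), varied among OE2 libraries, at 8.91, 30.8 and 5.52 FPKM, against 0.355, 0.264 and 0.367 FPKM in dgk1 and 0.305, 0.275 and 0.363 FPKM in WT. Its highest library was OE2 replicate 2. The gene OS12G0236200, which overlaps it on the same strand, was also highest there, at 3.72, 10.96 and 4.13 FPKM in OE2 and 0 in dgk1 and WT.

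Single members parted in other lists. Of 13 tested transporters, model 11249, an ABC transporter with the domains of the plant PDR type (7731409 to 7749257), was at 12.7, 18.5 and 11.1 FPKM in OE2, 5.42, 6.003 and 7.04 FPKM in dgk1, and 8.51, 4.75 and 6.58 FPKM in WT, and its call was lost in 10 alternatives. Of 7 tested ubiquitin and proteasome models, the RING-type E3 ligase OS12G0277000, of the enzymes that tag proteins with ubiquitin, was at 30.5, 32.4 and 30.9 FPKM in OE2, 20.5, 23.0 and 18.4 FPKM in dgk1, and 20.04, 24.0 and 19.0 FPKM in WT. This difference is small (0.56 ± 0.12 on the log2(FPKM + 1) scale, OE2 minus WT), and its call was lost in 8 alternatives. Of 13 proteases and inhibitors, the serine carboxypeptidase above was the member that parted.

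No member parted among 20 tested protein kinases, 23 transcription factors, 9 ribosomal proteins, 7 chaperones, 7 F-box and BTB proteins, 6 cytochrome P450 enzymes, 4 lectins and wall-associated kinases, 3 peroxidases, 3 glycosyltransferases and 2 photosynthesis models. How many of these members lie in the span was not counted. Of all tested models 40.0% parted in the span, 1.59% to its left and 1.94% to its right. A small list outside the span could thus lack parted members by its place alone. Whether these classes parted less often than other models at the same places was not tested. None of the 16 lists had a member called in dgk1 against WT. The lists other than immune receptors and lignin held 11 memberships at an unadjusted p under 0.05 (limma). These were 2 each among protein kinases, cytochrome P450 enzymes and transporters. Glycosyltransferases, lectins and wall-associated kinases, ribosomal proteins, proteases and photosynthesis models had 1 each. Over the chromosome 150 of 1239 tested models were under 0.05, and the share over the genome was not counted.

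Some parted genes with no function given were strongly expressed in OE2 and are given here after their values were seen. OS12G0239300, which opens the fourth stretch (7709120 to 7710951), was at 230.5, 249.6 and 226 FPKM in OE2, 0, 0.0494 and 0 FPKM in dgk1, and 0, 0 and 0.0391 FPKM in WT. OS12G0428000 (13657101 to 13658736) was at 136, 73.5 and 143 FPKM in OE2 and at 0 in the other 6 libraries. OS12G0257450 (8852645 to 8853021) was at 139.6, 68.4 and 122 FPKM in OE2 and at 0 in the other 6. All 3 genes were at or near 0 in dgk1 and WT. Model 11160, in the second stretch, was at 70.1, 45.7 and 76.0 FPKM in OE2, with 0.124 FPKM in dgk1 replicate 2 and 0 in the other 5 libraries.

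The opposite pattern was seen at lower levels. Model 11365 (9864470 to 9865299) was at 0 in all OE2 libraries, at 30.9, 25.0 and 24.6 FPKM in dgk1, and at 45.5, 35.9 and 33.2 FPKM in WT. OS12G0281966, next to the NB-ARC gene OS12G0281600, was at 0 in OE2, 23.2, 18.6 and 25.2 FPKM in dgk1, and 32.4, 20.7 and 27.0 FPKM in WT. OS12G0211900, the last model of the first stretch (5866457 to 5866924), was at 0 in OE2, 14.8, 13.7 and 11.02 FPKM in dgk1, and 26.2, 14.1 and 11.95 FPKM in WT. Stretches of higher and lower models lie next to each other there: its neighbours OS12G0211400 and OS12G0211500 were lower too, while the 9 other parted models of that stretch were higher in OE2. A graded fall was seen in OS12G0438900 (14503051 to 14503903), at 87.1, 89.6 and 101 FPKM in OE2, 187, 169 and 169 FPKM in dgk1, and 178, 175 and 180.2 FPKM in WT.

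One overlapping pair moved apart. Model 11645, with a rhodanese-like domain (13656791 to 13657843), was at 1.36, 0.926 and 0.698 FPKM in OE2, 2.36, 2.92 and 1.84 FPKM in dgk1, and 2.61, 2.16 and 2.38 FPKM in WT, and shares bases on the plus strand with OS12G0428000, which was higher in OE2. The sources used here do not say how fragments in the shared bases were divided between them.

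OS12G0204100 opens the first, at 3.32, 3.12 and 4.47 FPKM in OE2, 0, 0.0653 and 0.116 FPKM in dgk1, and 0, 0 and 0.0517 FPKM in WT. The last ends with OS12G0446300, at 7.12, 1.70 and 7.07 FPKM in OE2 and 0 in the other 6, where OE2 replicate 2 was the lowest of its line. OS12G0417300, which ends the ninth stretch, was at 0.423, 0.149 and 0.145 FPKM in OE2, 0.857, 1.12 and 1.78 FPKM in dgk1, and 1.26, 1.17 and 1.09 FPKM in WT, and parted in none of the fits that left out 1 library. The second stretch runs from model 11152 to model 11194, the next from model 11219 to OS12G0236200, and the fourth ends with OS12G0242500. The sixth ends with model 11333, the seventh with OS12G0289833, the eighth runs from the noncoding model EPlOSAG00000010924 to OS12G0409800, and the tenth begins with OS12G0444500.

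Not every model in the span differed. Of its 295 tested models 177 did not part, 22 of these were called in 1 of the OE2 comparisons, and 92 lay within 0.5 of both WT and dgk1 on the log2(FPKM + 1) scale. The adenylate kinase 3 gene OS12G0236400, whose product balances adenine nucleotides, lies just past the end of model 11226 and OS12G0236200 (7476475 to 7480266) and averaged 171 ± 11.6 FPKM in OE2, 162 ± 18.4 FPKM in dgk1 and 144 ± 16.2 FPKM in WT. OS12G0210300, a putative glutathione S-transferase inside the first stretch (5760537 to 5763699), averaged 110.0 ± 13.8 FPKM in OE2, 109 ± 10.4 FPKM in dgk1 and 101 ± 5.65 FPKM in WT. In both genes the lines overlap. The highest model of the span, OS12G0437800 (14411366 to 14412019), averaged 5526 ± 1143 FPKM in OE2, 3668 ± 1368 FPKM in dgk1 and 4853 ± 1025 FPKM in WT.

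The mago nashi homolog OS12G0287200, a part of the complex that marks spliced RNA, lies inside the seventh stretch and averaged 268 ± 6.41 FPKM in OE2, 252 ± 11.8 FPKM in dgk1 and 318 ± 43.0 FPKM in WT. OS12G0406200, a protein of the small ribosomal subunit (40S S3a) in the eighth stretch, averaged 113 ± 11.7 FPKM in OE2, 128 ± 10.1 FPKM in dgk1 and 145 ± 31.3 FPKM in WT. The probable histone H2A.7 gene OS12G0438000 was called in OE2 against WT and not against dgk1, at 113, 118 and 133 FPKM in OE2, 161, 172 and 161 FPKM in dgk1, and 239.9, 165 and 181 FPKM in WT. Its OE2 libraries lay below the other 6.

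A diacylglycerol kinase model lies in the second stretch. Model 11163 (6729703 to 6734416), with catalytic and accessory kinase domains, was at 41.8, 47.7 and 45.9 FPKM in OE2, 33.4, 31.8 and 36.2 FPKM in dgk1, and 31.3, 33.9 and 23.5 FPKM in WT. OE2 lay above the other 6 libraries. The model was called higher in OE2 against WT (0.61 ± 0.14 on the log2(FPKM + 1) scale) and not called against dgk1 (0.41 ± 0.14), so it did not part. For dgk1 minus WT the difference was 0.20 ± 0.14 on the same scale (limma adjusted p = 0.68). The other diacylglycerol kinase models, OS12G0576900 and model 12248, share a span at 23823838 and were listed at 0 in all 9 libraries. Of the 4 Rubisco small chain genes, whose protein belongs to the carbon-fixing enzyme of green tissue, OS12G0291100 passed the filter. It was at 0.654, 0.346 and 0.783 FPKM in OE2, 3.81, 1.25 and 1.20 FPKM in dgk1, and 1.10, 1.41 and 12.3 FPKM in WT, with WT replicate 3 far above the rest (dgk1 against WT, limma adjusted p = 0.85). OS12G0274700, OS12G0291400 and OS12G0292400 stayed at 1.18 FPKM or less in every library.

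Outside the span, 17 models parted and few had a named function. OS12G0638700, a plasma membrane ATPase that pumps protons out of root cells (27387215 to 27393762), was the model with a named function and at least 5 FPKM that was lower in OE2, at 10.9, 11.9 and 10.2 FPKM in OE2, 15.4, 17.6 and 16.4 FPKM in dgk1, and 16.1, 16.4 and 20.4 FPKM in WT. The difference was -0.63 ± 0.12 for OE2 minus WT and -0.54 ± 0.12 for OE2 minus dgk1, and its call was lost in 10 alternatives. OS12G0114000 (696645 to 697460), just inside the threshold, was at 302, 343 and 365 FPKM in OE2, 206, 188 and 240.5 FPKM in dgk1, and 167, 182 and 122 FPKM in WT. Just outside the threshold stood OS12G0284000, which starts at 10771046 and so lies inside the span. It was at 8.10, 6.98 and 7.11 FPKM in OE2, 4.35, 5.39 and 4.16 FPKM in dgk1, and 4.11, 4.95 and 3.70 FPKM in WT. Its OE2 libraries lay above the other 6 as well.

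The comparison of dgk1 with WT was not used to choose the chromosome, and few of its models passed the adjusted threshold there. Over chromosome 12, 9 models rose and 1 fell in dgk1 against WT (limma, adjusted p under 0.05), which is 0.807% of the 1239 tested and stands beside 0.675% over the genome, where 0.532% rose and 0.143% fell. At an unadjusted p under 0.05 (limma) there were 150 of the 1239. The share over the genome was not counted, so this number cannot be read as high or low for the chromosome. The count was 6 with the filter at 5 FPKM and 7 to 11 when 1 library was left out. In the span 5 of 295 models were called (1.69%) and outside it 5 of 944 (0.530%), a difference that was not tested. The median absolute difference for dgk1 minus WT was 0.12 in the span and 0.17 outside it on the log2(FPKM + 1) scale. For OE2 minus WT, which shares the WT libraries, it was 0.79 in the span and 0.21 outside it. The ends of the span were set by the OE2 calls, so a larger OE2 minus WT difference within it follows from that choice. The 48 parted models listed at 0 in all dgk1 and WT libraries have a dgk1 minus WT difference of 0 by construction. Most of them lie in the span and lower its median, so that median does not measure how alike dgk1 and WT are there.

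Of the 10, 1 had a named function. Model 10267, with the domain of the RNase P subunit p30, a part of the enzyme that trims transfer RNA precursors, lies at the start of the chromosome (33983 to 42963). It rose in dgk1, at 4.22, 4.81 and 4.09 FPKM in OE2, 1.51, 1.64 and 1.57 FPKM in dgk1, and 0.0161, 0 and 0.0201 FPKM in WT (dgk1 against WT, limma adjusted p = 0.00153). Model 10263, the first on the chromosome (1001 to 2673), rose as well, at 8.95, 7.51 and 9.71 FPKM in OE2, 5.74, 6.05 and 5.18 FPKM in dgk1, and 0 in all WT libraries (limma adjusted p = 2.73e-05). In both models the 3 lines stood apart in the order OE2, dgk1 and WT, and both are among the 135 parted models, though model 10263 lost that call in 13 alternatives.

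The other 8, which have no named function, are given after their values were seen. Model 11566 (11845387 to 11847613) was at 1.30, 3.71 and 3.20 FPKM in OE2, 4.83, 4.25 and 3.37 FPKM in dgk1, and 0 in all WT libraries (dgk1 against WT, limma adjusted p = 0.00551). Model 11887 was at 3.74, 4.29 and 1.92 FPKM in OE2, 2.46, 2.26 and 2.65 FPKM in dgk1, and 0.0698, 0 and 0 FPKM in WT (limma adjusted p = 0.00974). Model 11575 was at 4.37, 4.17 and 4.78 FPKM in OE2, 4.27, 4.21 and 4.11 FPKM in dgk1, and 0.736, 0.940 and 1.59 FPKM in WT (limma adjusted p = 0.00909). In these 3 the OE2 and dgk1 values lie close together and WT lies below both.

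OS12G0155000 (2699175 to 2700272) averaged 43.2 ± 4.48 FPKM in OE2, 54.4 ± 5.89 FPKM in dgk1 and 20.4 ± 6.04 FPKM in WT, with dgk1 minus WT at 1.41 ± 0.20 on the log2(FPKM + 1) scale (limma adjusted p = 0.0185). OS12G0510200 (19657007 to 19660520) averaged 10.01 ± 1.07 FPKM in OE2, 16.5 ± 2.81 FPKM in dgk1 and 7.08 ± 0.169 FPKM in WT (1.10 ± 0.14, limma adjusted p = 0.0121). Model 11423 averaged 1.47 ± 0.258 FPKM in OE2, 2.52 ± 0.862 FPKM in dgk1 and 0.238 ± 0.119 FPKM in WT (1.48 ± 0.20, limma adjusted p = 0.0169). All 3 were highest in dgk1 and lowest in WT. Leaving out single libraries ended the calls of OS12G0155000 (WT replicate 2 or any dgk1 replicate), model 11423 (WT replicates 1 and 3, dgk1 replicates 1 and 3) and OS12G0510200 (WT replicate 3 or dgk1 replicate 2). Over all alternatives their limma adjusted p ran from 0.00603 to 0.0881, from 0.0124 to 0.0782 and from 0.0121 to 0.0597 in that order. The same ended the calls of model 11887 (without dgk1 replicate 3, 0.00160 to 0.0565 over all alternatives) and of model 11575 (without dgk1 replicate 2, 0.00481 to 0.0502).

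OS12G0431300 (13885480 to 13888224) was high in dgk1 alone, at 1.57, 2.37 and 1.26 FPKM in OE2, 9.87, 8.28 and 9.48 FPKM in dgk1, and 2.76, 1.27 and 1.67 FPKM in WT (dgk1 minus WT 1.84 ± 0.22 on the log2(FPKM + 1) scale, limma adjusted p = 0.00823). OS12G0410050, just past the eighth stretch (12449549 to 12450779), was the 1 model that fell, at 4.40, 2.85 and 5.53 FPKM in OE2, 5.497, 6.27 and 5.92 FPKM in dgk1, and 20.3, 26.3 and 21.7 FPKM in WT (-1.78 ± 0.20, limma adjusted p = 0.00551). It was low in OE2 and dgk1 alike. These calls and that of model 11566 held in every alternative in which the model was tested, with limma adjusted p up to 0.0484, 0.0425 and 0.0386.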

How the data were processed

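The deposited values are FPKM, 1 table per library. No header names the unit, which was inferred: each deposited value times its model's length was a whole multiple of 1 step within 0.01, so the authors counted whole fragments. The submitters' processing notes name CASAVA 1.8 and HISAT2 with no role. The sources used here do not give the counting tool, genome build, annotation or strand setting. The members and the lists were chosen with earlier results of these data known.

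All 9 libraries entered 1 limma fit (version 3.58.1, R 4.3.3, trend and robust options, two-sided) on log2(FPKM + 1), with models of at least 1 FPKM in at least 3 libraries. P-values were Benjamini-Hochberg adjusted over 22383 models. Differences on this scale understate the change of low models. Named were the first and last parted model of each stretch, up to 8 rises and 8 falls with a named function, at least 5 FPKM and no overlap, models with a named function called in dgk1 against WT, up to 3 parted members per list, and the diacylglycerol kinase and Rubisco small chain models. Others are given as chosen after their values were seen. The fit was tested on simulated data. Replicate numbers did not pair the libraries and entered no term.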

Additional observations from a re-analysis of the deposited data

How the results depend on the processing

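Filter and stretch rule mattered most. With the filter at 5 FPKM, where fewer models are tested, 6 calls on chromosome 12 were left in dgk1 against WT, 75 in OE2 against WT and 65 in OE2 against dgk1. That filter gave 53 parted models, 7 differing steps and 1 stretch. Steps of 200 kb gave 5 stretches. Over the fits that each left out 1 library, the counts ran from 7 to 11 (dgk1 against WT), 133 to 172 (OE2 against WT), 131 to 166 (OE2 against dgk1), 113 to 139 (parted models), 24 to 33 (steps) and 6 to 11 (stretches). The other alternatives run on these counts (no filter, a pseudocount of 0.1, a 2-fold minimum, rescaled libraries, the 6 compared libraries alone, other step rules) stayed within 1.5 times the reported count, and the highest number of parted models among them was 157, with no filter. Of the 50 parted models tracked singly, 41 kept the call in every alternative in which they were tested; of 8 called in dgk1 against WT, OS12G0410050, OS12G0431300 and model 11566 did. Models under the 5 FPKM filter were not tested there. None was reversed.

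With the replicate number as a block, 8 models were called in dgk1 against WT (OS12G0155000 and model 11423 not among them), 142 in OE2 against WT and 138 in OE2 against dgk1. There were then 118 parted models, 26 differing steps and 6 stretches. Same-numbered libraries did not deviate together (correlations of -0.161 to 0.0635), so the libraries share only a number. Depth limits low models: 43 of the 100 parted higher and 23 of the 35 parted lower were under 5 FPKM where they were highest.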
